A study of Mus musculus with 12 samples.

Results

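Contractile protein genes of smooth and striated muscle were followed across the wild-type and the EAAE mouse uterus, before and after estradiol. They were chosen by a rule on names, set with earlier results of these data known. It covers every probe whose gene name or current symbol begins with Myh, Myl, Tnnc, Tnni, Tnnt or Tpm followed by a digit. Acta1, Acta2, Actc1, Actg2, Actn2, Actn3, Cnn1, Tagln, Des, Smtn, Trdn, Atp2a1 and Casq1 complete it. The rule took 85 of the 41174 probes on the array, for 49 genes, and 4 of these probes (for Myl10, Myl12a and Myl12b) only through the current symbol. A probe was tested when all 3 arrays of some group were marked well above background by the scanner software, which left 65 probes and 42 genes among 29017 probes and 19301 genes tested in all. The 7 untested genes, Myh1, Myh2, Myh3, Myh13, Myl2, Myl10 and Tnni3k, had no probe that met this condition. Tnni3k, a kinase, shares only the name.

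The 12 arrays fall into 4 groups of 3 mice. WT saline mice had the wild-type Esr1 gene, were adult females of C57bl6/Jx129 strain aged 10 weeks or more, had been ovariectomized and left for 10 to 14 days, and gave their uterus 2 h after an injection of 100 ul of saline. WT E2 mice differed only in the agent, estradiol (E2, at a dose the labels do not give). EAAE saline and EAAE E2 mice had the same strain, age, surgery and injections but the EAAE form of Esr1, whose product, estrogen receptor alpha, is deficient in DNA binding according to the series title. The labels give no zygosity. Each array carried the RNA of a whole uterus, in which fewer cells of a type and less RNA per cell cannot be told apart. The comparisons ask which early transcript changes need a receptor that binds DNA, and how the uterus with the EAAE receptor differs before and after hormone.

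Smooth muscle of the myometrium contracts when calcium leads to phosphorylation of the light chain Myl9 on the motor Myh11, which then pulls on alpha and gamma smooth muscle actin (Acta2 and Actg2). Calponin (Cnn1), transgelin (Tagln), smoothelin (Smtn) and tropomyosins (Tpm1 and Tpm2) bind those filaments, and desmin (Des) anchors them. Striated muscle is switched in another way, by troponin: calcium binds the C subunit, which releases the hold of the I subunit on the filament, and the T subunit ties both to tropomyosin. Every cell also carries non-muscle motors (Myh9, Myh10 and Myh14) for shape and movement.

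The genotype differences described here rest on array probes of 60 bases, of which some are shown. Only probes with at least 1 reading frame without a stop and with no polyadenylation signal were chosen for this, so those of Tnnc2 and Tnni2, which hold such a signal, are not printed. Exon numbers were not used here. The probes are given 5′ to 3′ from the array files, with the position in mm7, the build of those files. The first set reads the triadin gene on the plus strand, at chr10:32919868-32919927 and chr10:32980819-32980878, where all EAAE arrays were dark.
Trdn: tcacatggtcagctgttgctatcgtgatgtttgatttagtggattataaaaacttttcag
Trdn (other probe): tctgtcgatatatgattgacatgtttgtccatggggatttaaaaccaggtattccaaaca
The second set reads troponins that were brighter in EAAE, at chr1:135737607-135737919 (plus strand, across an exon junction), chr7:4071141-4071200 (minus), chr7:138939629-138939854 (plus, across a junction) and chr7:4077835-4077894 (minus).
Tnnt2: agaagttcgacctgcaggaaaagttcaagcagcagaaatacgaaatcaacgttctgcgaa
Tnnt1: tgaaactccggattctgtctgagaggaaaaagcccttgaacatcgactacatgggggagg
Tnnt3: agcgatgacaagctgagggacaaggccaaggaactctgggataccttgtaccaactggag
Tnni3: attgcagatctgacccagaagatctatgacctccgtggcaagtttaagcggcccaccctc
The third set reads striated myosin heavy chains, whose genes resemble each other: Myh6 at chr14:49813005-49813064 and chr14:49811341-49812926 (minus strand, the latter across junctions), Myh8 at chr11:67389989-67390048 and Myh4 at chr11:67340868-67340927. Capitals in Myh8 mark the 19 bases shared with a probe of Myh1, the longest run common to probes of different members among 3521 pairs.
Myh6: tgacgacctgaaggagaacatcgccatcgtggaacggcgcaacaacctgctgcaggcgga
Myh6 (other probe): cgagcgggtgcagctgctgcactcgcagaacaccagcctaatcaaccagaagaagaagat
Myh8: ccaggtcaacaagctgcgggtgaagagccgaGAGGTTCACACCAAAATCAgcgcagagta
Myh4: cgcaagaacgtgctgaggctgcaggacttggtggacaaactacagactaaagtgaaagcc
The last one reads Smtn, the smooth muscle gene with the largest difference between the genotypes, at chr11:3472834-3472893 (minus strand).
Smtn: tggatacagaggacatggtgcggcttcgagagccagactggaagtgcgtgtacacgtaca

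Levels are log2 of the processed intensity relative to the 75th percentile of the array, so a difference of 1 is a doubling, and no level is set against that of another gene. Between 64.0 and 74.0% of the spots were well above background, arrays of the same group correlated with r of 0.9826 to 0.9929 over all tested probes (12 pairs), and no member probe was saturated. Esr1 was well measured at 2.74, 2.94 and 2.93 in WT saline, 2.63, 2.57 and 2.68 in WT E2, 3.15, 3.35 and 3.35 in EAAE saline and 3.18, 3.01 and 2.96 in EAAE E2, which cannot check a change in DNA binding. Differences were tested with limma over all 12 arrays with Benjamini-Hochberg adjustment, and "called" means an adjusted p under 0.05. The uterus label was borne out by smooth muscle markers: all 10 of its markers were measured, and the 5 that are no members summed to 14.6 to 18.1 (linear scale, in units of the 75th percentile) in WT saline, 18.3 to 23.1 in WT E2, 18.4 to 18.9 in EAAE saline and 13.3 to 16.2 in EAAE E2. The 3 slides carried the groups unevenly and all EAAE E2 arrays lay at position 4. With slide and position both fitted, 40 of the 72 calls on members were lost, 1 of them with a change of sign, while with slide alone 5 were lost.

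E2 left the smooth muscle filament genes of the WT uterus near their saline levels at 2 h. None of the 10 was called, with differences from -0.23 (Myh11) to 0.36 (Cnn1) and a median of -0.004, against a median of -0.146 over all genes. Among all 42 members 17 were called (40.5%), 12 higher and 5 lower, where 49.4% of all genes tested were called, 19.6% higher and 29.8% lower. Acta2, the main actin of smooth muscle, stood at 7.24, 7.27 and 7.49 in WT saline and at 7.39, 7.42 and 7.27 in WT E2. These ranges overlap, and the difference was 0.03 (SE 0.18, 95% interval -0.38 to 0.43). Cnn1, which restrains actin-activated myosin, stood at 6.08, 6.13 and 6.22 and then at 6.43, 6.82 and 6.26. All 3 treated arrays lay above the saline arrays, but the difference of 0.36 (SE 0.20) had an adjusted p of 0.167 in limma. With the slide as a block Cnn1 was called in WT (0.47, adjusted p = 0.0285), and so was its difference of responses (-0.90, adjusted p = 0.0159). No other of the 10 was called in either comparison with that block. The difference of responses of Cnn1 was also called with quantile scaling and with slide and position fitted (adjusted p = 0.0441 and 0.0256). Without EAAE E2 3 it was called for Acta2 (-0.53), Actg2 (-0.64) and Cnn1 (-0.905), with adjusted p of 0.0204, 0.00827 and 0.0109. With the array median in place of the 75th percentile, the median of the 10 genes moved to 0.13 and that of all genes to -0.013, and the calls over all genes went from 3774 higher and 5753 lower to 4492 and 3949. Pericyte markers, which belong to contractile cells of vessels, moved between the groups (6 of 6 measured, none at 0): they summed to 39.5 to 55.3 in WT saline, 13.1 to 16.4 in WT E2, 33.9 to 41.2 in EAAE saline and 44.1 to 52.6 in EAAE E2. Their part in these values was not tested.

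In the EAAE uterus all 10 smooth muscle genes stood lower after E2 than after saline, by -0.04 (Myl9) to -0.31 (Cnn1), with none called. The 3 EAAE E2 arrays disagreed. For each of the 10 genes the third EAAE E2 array was the highest of its group, and the first was the lowest for 8. Acta2 stood at 6.37, 6.59 and 7.22 on these arrays, against 7.05, 7.0 and 6.89 in EAAE saline. The third array thus lay above every EAAE saline array while the other two lay below. Des, the muscle intermediate filament, showed the same spread, with 2.61, 2.93 and 3.69 in EAAE E2. The median SD of the class was 0.44 in EAAE E2 and 0.089 to 0.15 in the other groups. WT saline 3 and WT E2 2 were likewise the highest of their groups for 10 of 10 genes, and both share slide 3 with EAAE E2 3. WT saline 2, also on that slide, was the highest for 0. The smooth muscle markers that are no members were also highest on WT saline 3, WT E2 2 and EAAE E2 3 within their groups. The part of muscle content or slide in this spread was not tested.

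Smtn, a filament protein of fully contractile smooth muscle, was lower in EAAE whatever the treatment. It stood at 2.66, 2.28 and 2.74 in WT saline and at 2.59, 2.72 and 2.38 in WT E2. In EAAE it stood at 1.24, 1.30 and 1.21 under saline and at 0.89, 0.76 and 1.42 after E2. The highest EAAE array lay below the lowest WT array. Under saline the difference was -1.31 (SE 0.18, adjusted p = 0.000443, limma), a call lost with slide and position both fitted (adjusted p = 0.216). After E2 it was -1.54 (SE 0.18, adjusted p = 3.42e-05).

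After E2 several other smooth muscle genes were lower in EAAE than in WT, in a comparison that shares its arrays with both E2 responses. Smtn, Actg2 (-0.89, SE 0.18, adjusted p = 0.0017), Cnn1 (-0.75, adjusted p = 0.00862), Acta2 (-0.63, adjusted p = 0.0121) and the actin bundler Tagln (-0.41, adjusted p = 0.0228) were called lower and none higher, 5 of 10. Actg2, the actin that marks visceral and uterine muscle, stood at 4.01, 4.08 and 3.94 in WT E2 and at 2.98, 2.77 and 3.62 in EAAE E2. The groups did not overlap, and the third EAAE E2 array again lay nearest to WT. Myl9 (-0.42), Tpm2 (-0.42), Tpm1 (-0.16), Myh11 (-0.11) and Des (0.05) were not called. With the slide as a block Myl9 and Tpm2 were, at differences of the same size (adjusted p = 0.0498 and 0.0452), which made 7 of 10, and Myl9 was also called with the replicate block (adjusted p = 0.0332). Over all members 28 of 42 were called in this comparison (66.7%), 12 higher and 16 lower, where the share over all genes was 58.0%, 33.5% higher and 24.5% lower. The median of the 10 smooth muscle genes was -0.42, against 0.109 over all genes. Without EAAE E2 3, 8 of the 10 were lower, while the 2 groups alone gave 2 and slide with position gave 1. Tagln lost its call without WT E2 1, WT E2 2, EAAE E2 1 or EAAE E2 2.

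**Figure D1:**
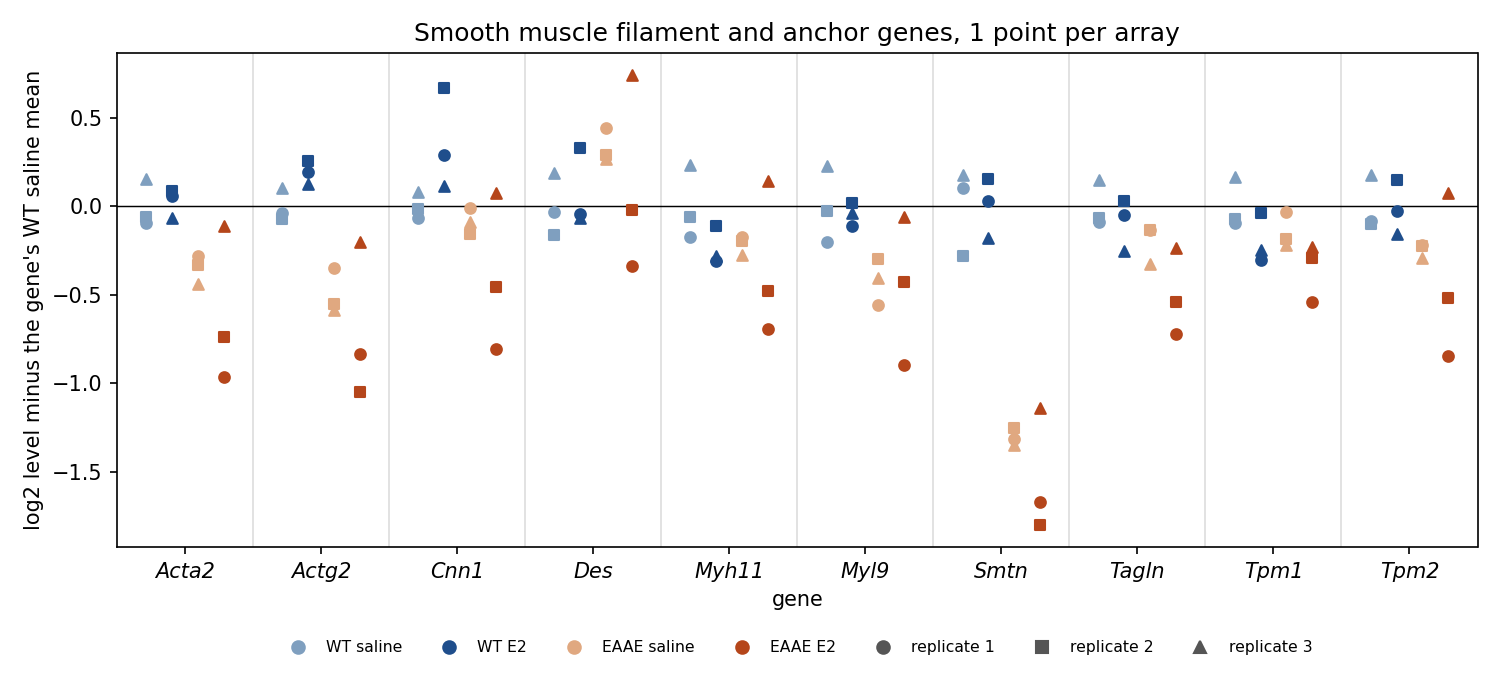
Log2 level of the 10 smooth muscle filament and anchor genes on each array, as the difference from the gene's WT saline mean (vertical axis), with colours for the 4 groups and marker shapes for the replicates. The EAAE arrays of Smtn sit below all WT arrays, and EAAE E2 replicate 3 is the highest of the EAAE E2 arrays for all 10 genes.

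The probes of a smooth muscle gene could differ in size of effect. Acta2 had 5 tested probes, whose differences between the genotypes after E2 ranged from -0.15 to -1.49 and were called on 2 others beside the one above (-1.02 and -1.49, adjusted over probes). On the probe with -1.49, at chr19:33954688-33954747, the responses of the genotypes to E2 differed (-1.74, adjusted p = 0.0234 over probes), which they did not on the other 4. The second Tagln probe gave -0.55 (adjusted p = 0.00904 over probes). Tpm1 had 1 of 3 probes called after E2 (-0.34, adjusted p = 0.0464 over probes). Under saline the remaining 9 smooth muscle genes, with differences of -0.50 (Actg2, adjusted p = 0.0626) to 0.33 (Des), were not called, and without EAAE E2 3, whose spread enters the fit, Actg2 and Acta2 were (adjusted p = 0.00459 and 0.0246).

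E2 raised non-muscle motors and their tropomyosins in WT. Of the 9 genes of this class 6 rose and 1 fell (77.8% called, where 49.4% of all genes were, 19.6% higher and 29.8% lower), with a median difference of 0.38. Myh14, a non-muscle heavy chain of epithelia, stood at 2.72, 2.53 and 2.59 in WT saline and at 3.66, 3.71 and 3.46 in WT E2. The groups lay far apart, and Myh14 rose by 0.997 (SE 0.14, adjusted p = 0.000223, limma). Myl12a, a regulatory light chain of non-muscle myosin, went from -1.17, -1.25 and -1.09 to -0.47, -0.32 and -0.57, a rise of 0.72 (SE 0.09, adjusted p = 0.000135). Tpm4, a tropomyosin of the cytoskeleton, rose from 4.46, 4.34 and 4.38 to 5.02, 5.17 and 4.92 (0.64, SE 0.09, adjusted p = 0.00022). For both genes every E2 array lay above every saline array. Myh9, the most widespread non-muscle motor, rose by 0.53 (SE 0.10, adjusted p = 0.00182), Tpm3 by 0.38 and Myl12b by 0.35. Myl6b, an essential light chain, fell by 0.60 (adjusted p = 0.0131), a call lost without WT E2 2 or WT E2 3, and Myh10 (adjusted p = 0.997) and Myl6 (0.02) were not called. Summed markers of other cell types, all measured, moved between WT saline and WT E2 too: endothelium (6 markers) lay between 28.2 and 33.2 in saline and 17.8 and 18.7 in E2, stroma (8) between 400.9 and 418.7 and then 270.1 and 308.9, macrophages (6) between 100.7 and 157.8 and then 62.9 and 79.5, and epithelium (8) between 117.7 and 137.1 and then 101.4 and 110.9. The groups did not overlap. Their part in these rises was not tested.

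None of these 9 genes was called in EAAE, where their differences after E2 lay between -0.09 and 0.07. For 4 of them the responses themselves differed between the genotypes, in the interaction test of limma. The difference of responses, EAAE minus WT, was -0.97 for Myh14 (SE 0.20, adjusted p = 0.00401), -0.81 for Myl12a (adjusted p = 0.0011), -0.69 for Tpm4 (adjusted p = 0.0023) and -0.60 for Myh9 (adjusted p = 0.00977). Myh14 stood at 2.72, 3.06 and 2.71 in EAAE saline and at 2.58, 3.00 and 3.00 in EAAE E2, which overlap. Over all 42 members the responses differed for 9 (2 more positive in EAAE, 7 more negative), 21.4% where the share of all genes was 37.3% (22.2% more positive and 15.0% more negative). The split was 1 and 8 with the array median, 1 and 9 with quantile scaling and 1 and 14 without EAAE E2 3.

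Other probes of this class changed some of these values. The second Myh9 probe rose by 1.39 in WT and fell by 0.52 in EAAE (adjusted p = 0.0366 over probes). That fall was the only call on a probe of any member in the E2 comparison of EAAE. The second Myh10 probe was not called in either genotype (0.32 and -0.32), but its responses differed (-0.63, adjusted p = 0.0242 over probes). The second Myl12b probe fell by 0.35 in WT where the first rose by 0.35, so the direction of Myl12b is not settled. The second Myh14 probe was dim (well above background on 2 of 3 arrays in 3 groups) and gave 0.68 (adjusted p = 0.467 over probes). With the mean of the probes, Myh14 lost its call in WT and in the difference of responses (adjusted p = 0.109 and 0.376).

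Between the genotypes the non-muscle genes split. Under saline Myh9 (0.46, SE 0.10, adjusted p = 0.00779) and Myl6b (0.55, adjusted p = 0.0317) were higher in EAAE and Tpm4 (-0.35, adjusted p = 0.0161) was lower. Myh9 stood at 4.91, 4.96 and 4.80 in WT saline and at 5.24, 5.48 and 5.33 in EAAE saline, with no overlap. The call of Myl6b was lost without any 1 of the 6 saline arrays, and that of Tpm4 without WT saline 1 or EAAE saline 3. Both were also lost with the slide alone as a block (0.32 and -0.28, adjusted p = 0.18 and 0.138). In EAAE saline the epithelial markers summed to 175.4 to 219.1 and the macrophage markers to 31.7 to 46.8, with no overlap with WT saline, and their part in these differences was not tested. After E2 Myl12a (-1.06), Tpm4 (-1.03), Myh14 (-0.75), Myl12b (-0.47) and Tpm3 (-0.32) were lower and Myl6b (1.09) was higher. Except for Myl12b, whose direction differs between its probes in both comparisons, the lower genes had risen in WT, and the same WT E2 arrays enter both comparisons.

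**Figure D2:**
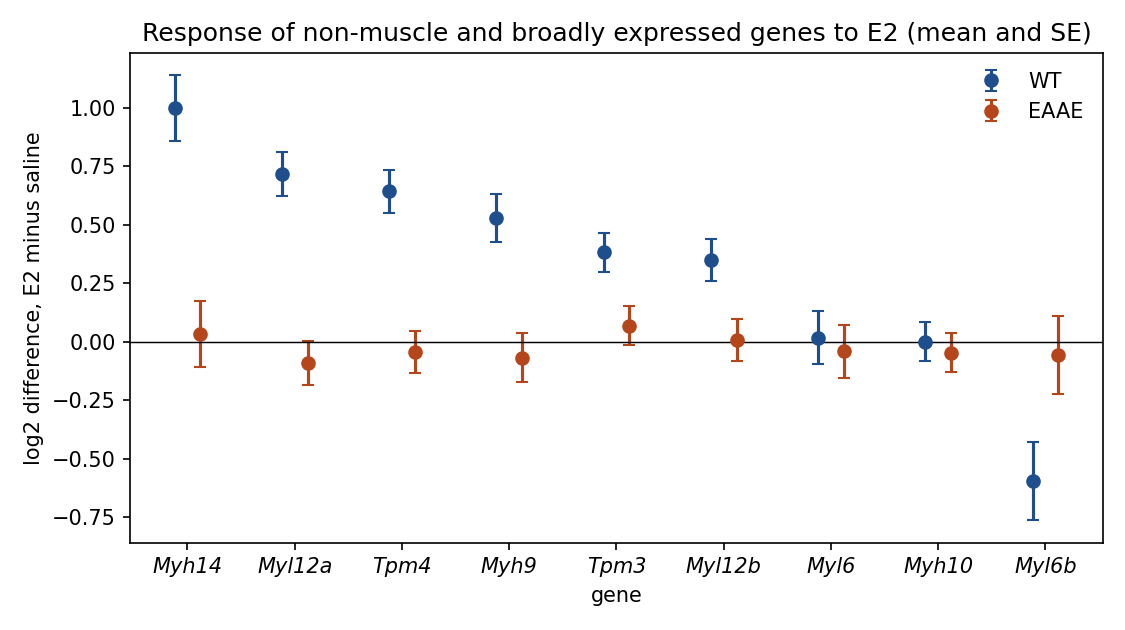
Log2 difference, E2 minus saline, of the 9 non-muscle and broadly expressed genes (vertical axis), with WT in blue and EAAE in red. Points are fitted means and bars are 1 SE. Of the WT values 6 were called higher and 1 lower, while the EAAE values lie between -0.09 and 0.07.

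Troponin transcripts were more abundant in the EAAE uterus before any hormone. All 8 measured troponins stood above WT under saline, from 0.20 (Tnnc1) to 4.31 (Tnnc2), and 6 of the 8 were called. Over all members 18 of 42 were called in this comparison (42.9%), 12 higher and 6 lower, where the share over all genes was 29.6%, 14.5% higher and 15.1% lower. The median of the 42 was 0.008 and that of all genes 0.001. Tnnt2, the troponin T of heart, stood at -2.45, -1.5 and -1.85 in WT saline and at 2.25, 2.06 and 1.95 in EAAE saline. After E2 the levels were -1.94, -1.41 and -1.87 in WT and 1.75, 2.02 and 1.59 in EAAE. No WT array reached an EAAE array, with differences of 4.02 under saline (SE 0.23, adjusted p = 2.13e-06) and 3.53 after E2 (SE 0.23, adjusted p = 7.1e-07). The second Tnnt2 probe, not well above background on any WT array, gave 3.83 and 2.09. After E2, 7 of the 8 troponins stood above WT (median 1.48) and the same number of calls, 6, was made.

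Tnnc2, the calcium sensor of fast muscle, showed the largest difference among the members that were higher, with more spread. It stood at -2.87, -3.01 and -3.52 in WT saline, -3.28, -2.75 and -2.87 in WT E2, 2.02, 1.51 and -0.01 in EAAE saline and 0.03, 1.10 and 2.11 in EAAE E2. All EAAE arrays lay above all WT arrays, by 4.31 under saline (SE 0.56, adjusted p = 0.000348) and 4.05 after E2 (SE 0.56, adjusted p = 0.000129). Tnnt1, the troponin T of slow muscle, stood at -0.67, -0.14 and -0.12 in WT saline and at 1.94, 2.28 and 2.27 in EAAE saline (2.47, SE 0.22, adjusted p = 3.5e-05). After E2 the difference was 2.55 (adjusted p = 5.07e-06).

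Tnni2, the inhibitory subunit of fast muscle, was 1.57 higher under saline (SE 0.36, adjusted p = 0.00834) and 1.48 higher after E2 (adjusted p = 0.00479). Tnnt3, the troponin T of fast muscle, was 0.84 and 0.95 higher (adjusted p = 0.0282 and 0.00771). The saline call of Tnnt3 was lost without WT saline 1, WT saline 2, EAAE saline 2 or EAAE saline 3. Tnni3, the inhibitory subunit of heart, was the only troponin called in WT after E2. It stood at -1.18, -1.23 and -1.14 in WT saline and -1.77, -1.85 and -1.77 in WT E2, and fell by 0.61 (SE 0.12, adjusted p = 0.0014). In EAAE it stood at -0.47, -0.26 and -0.67 under saline and at -0.43, -0.13 and -0.39 after E2. The E2 arrays of WT lay below the saline arrays, those of EAAE did not, and the responses differed by 0.76 (SE 0.16, adjusted p = 0.00486). The second Tnni3 probe gave the same 5 signs, with -0.70 in WT and 0.82 for the difference of responses. Tnni1 and Tnnc1, of slow muscle, were not called in any comparison.

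Heavy chains of striated muscle were also higher in EAAE under saline where they could be measured. Myh6, the alpha heavy chain of atrium, stood at -5.24, -6.16 and -5.90 in WT saline, with 1 of 3 arrays well above background, and at -2.07, -2.02 and -2.56 in EAAE saline. The difference was 3.55 (SE 0.45, adjusted p = 0.000283), and 4.40 on the other probe, which was not well above background on any WT saline array. Myh8, a heavy chain of developing muscle, was 2.60 higher under saline (SE 0.42, adjusted p = 0.00128) and 1.23 after E2 (adjusted p = 0.0269). The second of these calls was lost without WT E2 1, WT E2 3, EAAE E2 2 or EAAE E2 3, and its other probes were too dim to test. Myh4, a heavy chain of fast muscle, stood at -3.83, -3.38 and -3.84 in EAAE saline and at -4.49, -3.82 and -3.12 in EAAE E2. It was well above background on 1 of 6 WT arrays, and the fitted difference under saline was 2.94 (SE 0.45, adjusted p = 0.000908). After E2 it was at least 3.5-fold higher in EAAE (adjusted p = 0.000645), a bound set by the dimmest measurable probes of the WT arrays. Its second probe was too dim to test.

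Myh7, the heavy chain of slow muscle and ventricle, rose in WT after E2 more than any other member. It stood at -1.92, -4.24 and -4.17 in WT saline and at -0.19, 0.47 and -0.05 in WT E2. WT saline 1 lay over 2 units above the other saline arrays, yet below every E2 array. Myh7 rose by 3.52 in WT (SE 0.56, adjusted p = 0.000477) and changed by 0.28 in EAAE (SE 0.56, adjusted p = 0.845), where its 6 arrays lay between -2.12 and -0.90. The responses differed by -3.24 (SE 0.79, adjusted p = 0.00948). Under saline Myh7 was higher in EAAE by 1.84 (SE 0.56, adjusted p = 0.0315), a call lost without WT saline 2, WT saline 3 or any EAAE saline array and with the slide as a block (adjusted p = 0.146), and after E2 the sign was the opposite (-1.40, adjusted p = 0.0527). The 2 Myh7 probes overlap by 55 bases and are not independent readings, and the other one was called after E2 (-1.34, adjusted p = 0.0238 over probes). Myh6 and Myh8 rose with E2 in WT too, by 1.55 (adjusted p = 0.0152) and 1.23 (adjusted p = 0.0327). The first call was lost without WT saline 2 or WT E2 2, and the second without WT saline 1, WT saline 2, WT E2 1 or WT E2 2. Both calls were lost with normexp background correction (0.60 and 0.65, adjusted p = 0.124 and 0.0705). They were also lost with slide and position fitted (adjusted p = 0.0516 and 0.0958), and that of Myh8 with no filter on dim probes (adjusted p = 0.0533).

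Trdn, which ties the calcium release channel to calsequestrin in striated muscle, was dark in every EAAE uterus. It stood at -1.79, -2.44 and -1.90 in WT saline and at -2.58, -2.57 and -2.75 in WT E2. In EAAE it stood at -7.61, -7.69 and -7.53 under saline and at -7.72, -7.54 and -7.35 after E2, not well above background on any of the 6 arrays, and neither was the second probe. It was at least 13.5-fold lower in EAAE under saline (adjusted p = 5.86e-08) and at least 7.36-fold lower after E2 (adjusted p = 1.21e-08). By its p Trdn ranked 2 among all genes tested under saline. Trdn and Esr1 lie on chromosome 10, their probes 27.6 Mb apart in mm7. Of the 7 other genes tested within 1 Mb of Trdn, 3 were called under saline, all lower, and of the 37 within 5 Mb 10 were called, 6 higher and 4 lower, where 29.6% of all genes were called. The nearest of those called, 373 kb away, was Clvs2, at -5.98 under saline and -5.32 after E2 (adjusted p = 5.86e-08 and 8.95e-09). The next, at 442 kb, a transcript with no symbol in the files, gave -3.66 and -1.85. The third, Calhm6 at 987 kb, gave -1.56 and -0.50, the latter not called (adjusted p = 0.338). A gene nearer than Clvs2, at 337 kb, was not called (-1.92 and -0.76, adjusted p = 0.0745 and 0.406). These neighbours were singled out after their values were seen. E2 lowered Trdn in WT by 0.59 (SE 0.16, adjusted p = 0.0113), a call lost with array median scaling. The fitted difference of responses, 0.66 (adjusted p = 0.0418), sets this against EAAE values at background and was lost under 17 alternatives.

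**Figure D3:**
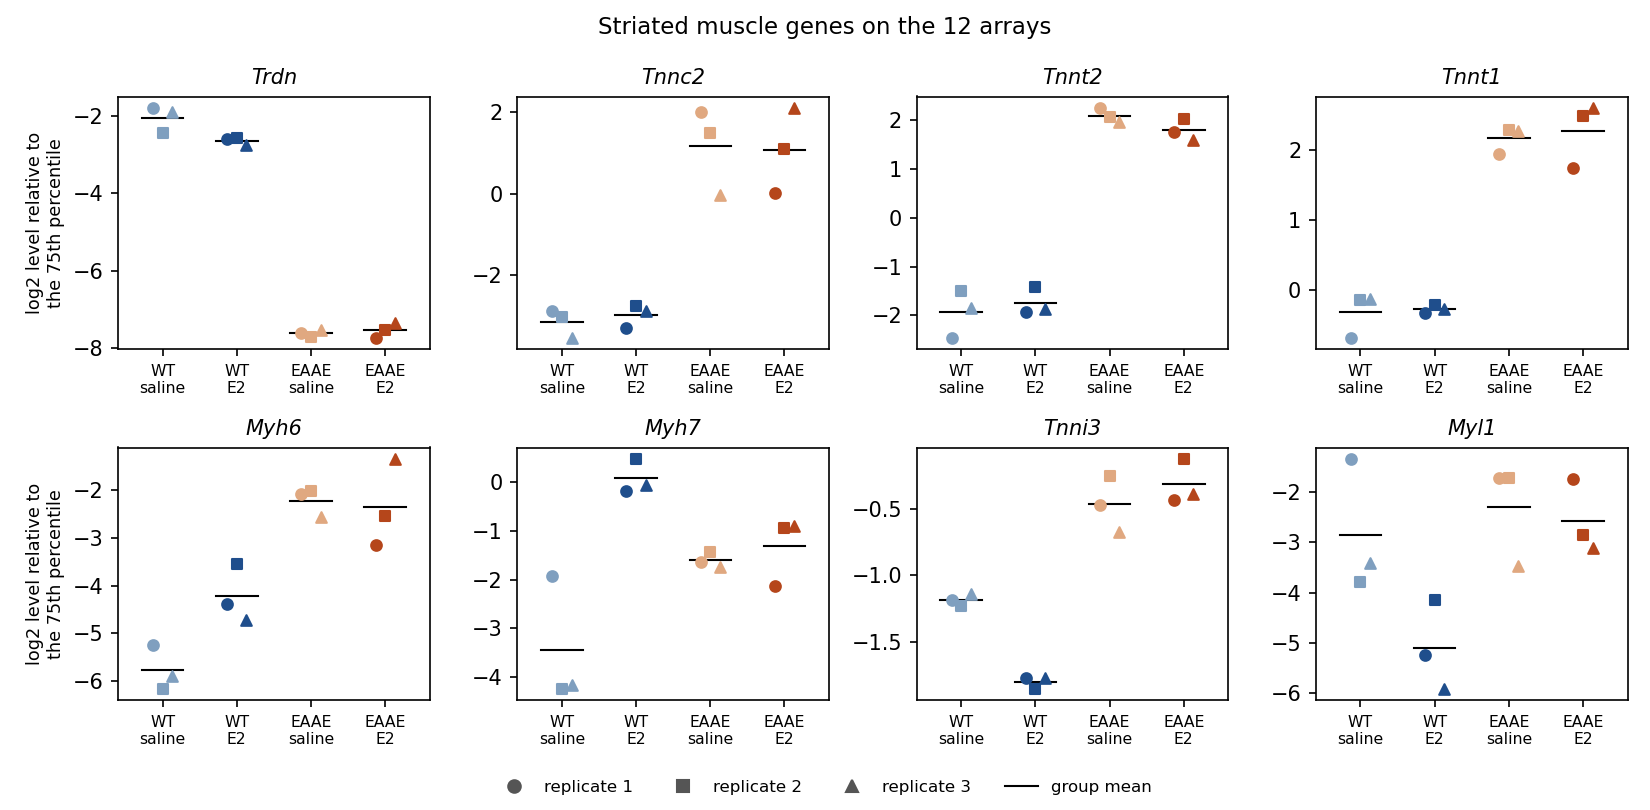
Log2 level relative to the array's 75th percentile (vertical axis, a scale per gene) of 8 striated muscle genes on the 12 arrays, by group, with marker shapes for the replicates and a line at the group mean. Trdn lies below -7 on all EAAE arrays, Tnnc2, Tnnt2 and Tnnt1 lie higher on all EAAE arrays than on any WT array, and Myh7 is highest in WT E2.

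Not all striated muscle genes were higher in EAAE. Casq1, the calcium store protein that Trdn binds, stood at -5.04, -5.46 and -5.50 in WT saline. That was the only group with any array well above background, and Casq1 was tested through it alone. In EAAE saline Casq1 was at least 1.38-fold lower (adjusted p = 0.00887). The call was lost with normexp background correction (log2 difference -0.317, adjusted p = 0.0714) and with slide and position fitted (adjusted p = 0.748). Acta1, the skeletal alpha actin, stood at 2.04, 2.26 and 2.31 in WT saline and at 1.66, 1.66 and 1.36 in EAAE saline. The 3 EAAE arrays lay below the WT arrays, with a log2 difference of -0.64 (SE 0.21, adjusted p = 0.0405), a call lost without any 1 of the WT saline, WT E2 or EAAE saline arrays. With the slide as a block the difference was -0.31 (adjusted p = 0.269), and with slide and position fitted it turned to 0.09. After E2 the log2 difference was -1.22 (SE 0.21, adjusted p = 0.000555). Actc1, the heart alpha actin, stood at 4.28, 4.42 and 4.16 in WT E2 and at 3.17, 3.22 and 3.98 in EAAE E2 (-0.83, SE 0.20, adjusted p = 0.00492). For both actins EAAE E2 3 again lay highest of its group. Myl4, an essential light chain of atrium and embryo, was lower in EAAE, with differences of -0.76 under saline (adjusted p = 0.00166) and -1.07 after E2 (adjusted p = 4.58e-05).

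Atp2a1, the calcium pump of fast muscle, rose with E2 in WT, and its responses differed between the genotypes. It stood at -2.78, -2.63 and -2.61 in WT saline and at -1.89, -1.73 and -1.97 in WT E2, a rise of 0.81 (SE 0.11, adjusted p = 0.000185). In EAAE it stood at -2.43, -2.74 and -2.79 and then at -2.93, -2.77 and -2.88. The WT E2 arrays lay above all others, and the responses differed by -1.02 (SE 0.16, adjusted p = 0.000772). After E2 Atp2a1 was lower in EAAE (-0.999, adjusted p = 2.77e-05). Actn2, an actin crosslinker of the Z disc, rose by 1.27 in WT (adjusted p = 0.00789), with a difference of responses of -1.74 (SE 0.46, adjusted p = 0.0133). It was well above background on all 3 arrays in WT E2 only, and was tested through that group alone. It was lower in EAAE after E2 (-1.82, adjusted p = 0.000669). Each of these Actn2 differences sets the group that passed the filter against dimmer arrays, so the filter has a part in them. Actn3, the fast muscle form, fell by 0.67 in WT (adjusted p = 0.00908) and was higher in EAAE after E2 (0.999, adjusted p = 0.000638). Myl1, an essential light chain of fast muscle, stood at -1.35, -3.78 and -3.42 in WT saline and at -5.25, -4.15 and -5.90 in WT E2, and fell by 2.25 (SE 0.73, adjusted p = 0.0262). That call was lost without WT saline 1, WT E2 1 or WT E2 3. Between the genotypes it was called after E2 only (2.53, SE 0.73, adjusted p = 0.0125). The 4 arrays highest for Myl1 were the 4 highest for the summed adipocyte markers, which lay at 205.4, 34.2 and 52.3 in WT saline and 9.74 to 32.4 in WT E2, 46.2 to 223.8 in EAAE saline and 66.5 to 297.0 in EAAE E2. All 10 adipocyte markers were measured, and their part in Myl1 was not tested. Myl3 and Myl7, light chains of slow muscle with ventricle and of atrium, were not called in any comparison, and Myl4 rose by 0.45 in WT (adjusted p = 0.0149), a call lost without WT saline 1, WT saline 2, WT E2 1 or WT E2 2.

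**Figure D4:**
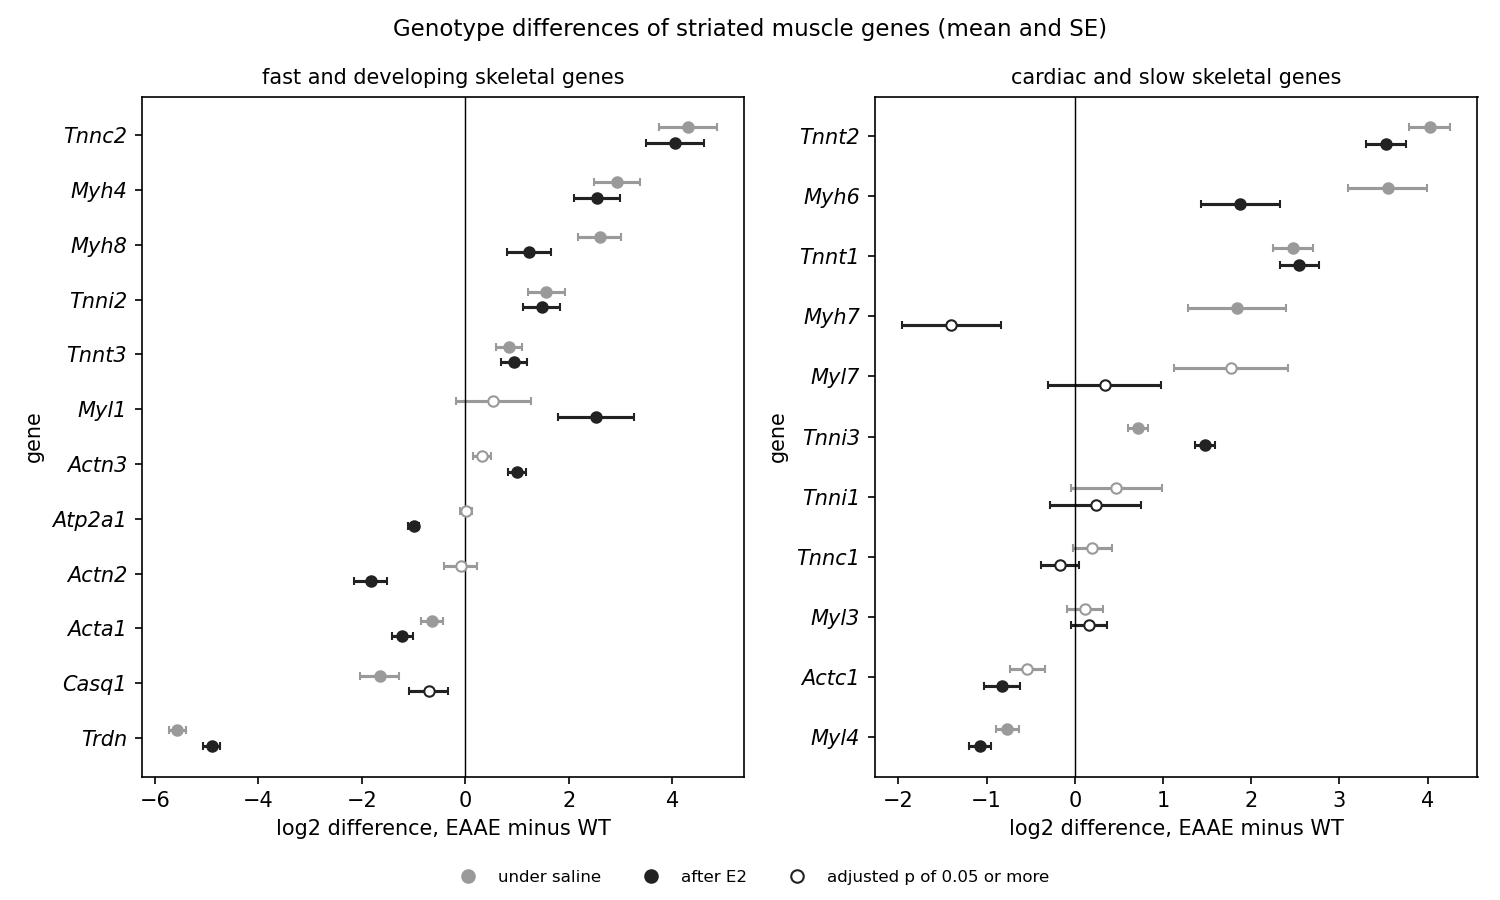
Log2 difference, EAAE minus WT (horizontal axis), of the 12 measured fast and developing skeletal genes and the 11 cardiac and slow skeletal genes, under saline in grey and after E2 in black. Points are fitted means, bars are 1 SE, and open points have an adjusted p of 0.05 or more. Trdn and Tnnc2 lie at the extremes, and Myh7 changes sides between the treatments.

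Between the genotypes, 15 members were called the same way under saline and after E2, among the 18 and the 28 called, in comparisons that share no arrays but a common estimate of the spread. Of all genes 29.6% were called under saline and 58.0% after E2. The share of all genes called the same way in both was not computed, so 15 is a description only. Those higher in both were Tnnc2, Tnnt2, Tnnt1, Tnni2, Tnnt3, Tnni3, Myh4, Myh6, Myh8 and Myl6b, and those lower in both were Trdn, Smtn, Acta1, Myl4 and Tpm4. With the slide as a block the saline calls of Myl6b, Acta1 and Tpm4 were lost. Casq1, Myh7 and Myh9 were called under saline only, a difference between treatments that the difference of responses tests (adjusted p = 0.188, 0.00948 and 0.00977). All 18 and 28 kept their direction within each slide that held both groups (1 and 3 slides), as did the 17 calls of WT after E2 (2 slides). The same arrays made the calls, so this agreement is no separate check and cannot decide the part of the slide. Summed markers of skeletal muscle that are no members were higher in EAAE than in WT under both treatments. Of 12 on the array 11 were measured, without Pvalb. They summed to 5.76 to 7.44 in WT saline and 10.3 to 12.3 in EAAE saline. After E2 they summed to 4.26 to 4.75 in WT and 7.11 to 10.5 in EAAE. In WT this sum was thus lower after E2 with no overlap, while 1 of the 8 troponins was called there. Of 7 cardiac muscle markers only 3 were summed, as Ryr2 and Nkx2-5 were not measured and Myh6 and Myl7 are members. The 3 summed to 0.165 to 0.203 in WT saline and 0.179 to 0.191 in EAAE saline, and to 0.146 to 0.195 and 0.167 to 0.217 after E2. All 3 were above background on every array in EAAE saline, and 2 in each other group. Of the members left out, Myh6 was called higher in EAAE under both treatments and Myl7 was not called. Of 13 myogenic factors 3 were measured, Hand2 and Mymk among them, and Myod1, Myog, Myf5 and Myf6 were not. The part of other muscle tissue in the sample was not tested.

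E2 moved no contractile gene past the threshold in the EAAE uterus. None of 42 members was called with limma, where 1.44% of all genes were (0.684% higher and 0.751% lower), and the count stayed at 0 under every alternative run. By gene, 1 member had an unadjusted p under 0.05 (Tagln, 0.0474), against 16% of all genes, and by probe the second Myh9 probe was the exception given above. Of the 42 differences 33 were below 0, with a median of -0.094 against 0.021 over all genes. The largest fitted falls were those of Myl7 (-0.75, SE 0.64), an atrial light chain, and Actn2 (-0.47, SE 0.32), both dim.

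Among genes that regulate the smooth muscle filaments, the share called in WT after E2 lay near that of all genes. Of 28 kinases, phosphatase subunits and filament regulators 10 rose and 6 fell (57.1%, against 49.4% of all genes), led by the protein kinase Rock2 (1.22, SE 0.16, adjusted p = 0.000113), the anchoring protein Synpo2 (1.19), Cnn2 (0.95) and the phosphatase inhibitor Ppp1r14a (0.80). None was called in EAAE, where 1.44% of all genes were. For 9 the responses differed (32.1%, against 37.3% of all genes, 22.2% more positive and 15.0% more negative). All 9 were more negative in EAAE, including Rock2 (-1.56) and Ppp1r14a (-1.28). Between the genotypes 5 were higher in EAAE and 4 lower under saline (32.1%, near the 29.6% of all genes). After E2 the split was 7 higher and 13 lower (71.4%, against 58.0% of all genes), with Ppp1r14a at -1.94. With slide and position both fitted, the calls numbered 8 in WT after E2, 1 under saline and 10 after E2. Of 13 factors of the serum response factor pathway, which controls muscle actin genes, 5 rose and 5 fell in WT (76.9%, against 49.4% of all genes). Srf itself rose by 1.78 (SE 0.12, adjusted p = 1.86e-06) and the cytoplasmic actin Actg1 by 1.20 (SE 0.08, adjusted p = 1.23e-06), with differences of response of -1.85 and -1.26. Myocd, the coactivator that drives smooth muscle genes, was higher in EAAE by 1.07 under saline (adjusted p = 0.00156) and 1.59 after E2 (adjusted p = 2.88e-05).

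Receptors that trigger uterine contraction moved in both directions. Of 17 signalling genes 3 rose and 6 fell in WT (52.9%, near the 49.4% of all genes), with the oxytocin receptor Oxtr up by 4.30 (SE 0.44, adjusted p = 2.4e-05) and the prostaglandin F receptor Ptgfr at -3.96 (SE 0.28, adjusted p = 2.47e-06). In EAAE the vasopressin receptor Avpr1a (1.19), Ptgfr (1.38) and the endothelin receptor Ednra (0.78) rose (17.6%, against 1.44% of all genes). The count in EAAE was 1, Avpr1a, on leaving out WT saline 2, WT E2 1, EAAE saline 1, EAAE saline 2, EAAE E2 1 or EAAE E2 2. It was 0 with slide and position both fitted. With only the groups compared in the fit it was 1, and Avpr1a lost its call there. The responses of Oxtr and Ptgfr differed by -3.90 and 5.34.

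Of 23 sarcomere partners measured of 30 on the list, 8 were higher in EAAE under saline and none lower (34.8% called, near the 29.6% of all genes, 14.5% higher and 15.1% lower). They included the titin cap Tcap (2.25, SE 0.30, adjusted p = 0.000396), the M line protein Myom3 (0.71) and the myosin binding protein Mybpc1 (1.01), and 0 were called with slide and position both fitted. In WT 5 of the 23 rose and 7 fell (52.2%, near the 49.4% of all genes), and 7 were called with slide and position fitted, with the actin capping protein Tmod1 at 2.74 (SE 0.17, adjusted p = 8.63e-07). Of 17 measured striated calcium and energy genes 3 rose and 3 fell in WT (35.3%, against 49.4% of all genes). Pln, which inhibits the calcium pump of slow muscle and heart, fell by 1.92 in WT and rose by 1.28 in EAAE (adjusted p = 5.9e-06 and 0.00591), a difference of responses of 3.20 (adjusted p = 5.66e-06).

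Serum response factor binds the CArG box, a motif of muscle gene promoters. RefSeq promoters (GRCm38.p6, 250 bases before to 50 after the start) were found for 42 of the 49 genes, 50 promoters in all. On either strand 8 of the 50 (16%) held a CArG box, those of Acta1, Actc1, Myh4, Myh13, Myl3, Myl6, Myl7 and Myl9, against 1.63% of 32851 promoters. The full estrogen response element (GGTCA, any 3 bases, TGACC) was in 0 of 50 (0.07% of all), the shorter AGGTCA in 14.0% (16.3%), the AP-1 site TGANTCA in 6.0% (7.81%), the E-box CANNTG in 88.0% (72.3%) and the MEF2 site in 0 (0.557%). AGGTCA may lie inside the full element. A match describes letters only. The 200 bases before the start are printed for Acta1 and Actc1, which were lower together in EAAE after E2, and for Myl9, a smooth muscle gene that was not called, with the CArG box in capitals. They lie at chr8:123894776-123894975 and chr2:114052876-114053075 (minus strand) and chr2:156775264-156775463 (plus strand).
Acta1: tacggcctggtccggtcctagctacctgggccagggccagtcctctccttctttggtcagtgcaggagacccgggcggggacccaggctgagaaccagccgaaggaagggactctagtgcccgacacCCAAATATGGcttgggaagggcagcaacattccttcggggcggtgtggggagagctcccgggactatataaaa
Actc1: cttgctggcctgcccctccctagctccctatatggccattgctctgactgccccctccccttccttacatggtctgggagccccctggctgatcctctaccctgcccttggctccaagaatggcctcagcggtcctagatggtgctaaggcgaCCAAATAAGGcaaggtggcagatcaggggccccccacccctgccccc
Myl9: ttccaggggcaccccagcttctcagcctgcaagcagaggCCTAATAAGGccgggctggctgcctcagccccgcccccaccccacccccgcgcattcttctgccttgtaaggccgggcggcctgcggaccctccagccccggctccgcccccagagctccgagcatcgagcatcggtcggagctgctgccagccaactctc
The box begins 73, 47 and 161 bases before the start. Of the 8 genes 7 were tested in the genotype comparison after E2, and Acta1, Actc1 and Myh4 were called there, the last one higher. Of all genes 58.0% were called in that comparison, 33.5% higher and 24.5% lower.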

How the data were processed

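RNA of 12 uteri was hybridised to 1-colour Agilent arrays. The authors read the scans with Feature Extraction, version 9.5.3.1 per the file headers and 9.5 as the submitters noted, and the deposited processed intensity of each spot is already background-subtracted. The deposited series table held the same intensity on all 45018 spots. From the deposited intensities, log2 levels relative to the 75th percentile of the 43379 spots that are no controls were computed here, leaving out 56 to 117 outlier spots per array. Spots of a probe were averaged, and the tested probe with the highest mean stood for a gene.

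The 4 groups were fitted together with limma 3.58.1 in R 4.3.3, in 5 comparisons, 2-sided, with Benjamini-Hochberg adjustment over all 19301 genes and a threshold of 0.05. The p-values measure the spread between single mice. Where a probe was not well above background on any array of a group, "at least" folds use the lowest measurable signal of those arrays. The number of arrays limits the precision. Alternatives of scaling, background, dim probe filter, probe choice, slide, replicate number and samples fitted were run, as was leaving out each array. Scripts were tested on simulated data.

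Members and lists were chosen with earlier results of these data known. All smooth muscle members are described, as are up to 4 members of each other class and up to 4 genes of each partner list per comparison, by smallest p. Other called members were added after their values were seen, so that each is accounted for. Correlations of same-numbered arrays, centred within their groups, ran from -0.282 to 0.194, and the reported fit holds no replicate block. Without the correlations of differently numbered arrays beside them, these values cannot settle whether the numbers pair the mice. Promoters are RefSeq's. A few items are not reported here.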

Additional observations from a re-analysis of the deposited data

Results flagged for a closer look

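For 9 members the response to E2 differed between the genotypes by the interaction test of limma, each listed as EAAE minus WT on the log2 scale. The difference was -3.24 for Myh7, -1.74 for Actn2, -1.02 for Atp2a1, -0.97 for Myh14, -0.81 for Myl12a, -0.69 for Tpm4 and -0.6 for Myh9, where WT rose and EAAE was not called. It was 0.76 for Tnni3, where WT fell and EAAE was not called. For Trdn it was 0.66, with every EAAE array at background and the call lost in 17 alternatives. Actn2 was tested only through WT E2, the group where it was high. No group had enough arrays for a check of single outlying arrays.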

How the results depend on the processing

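Of 72 calls on members, 29 were kept under every alternative that covered them. The deposited series table holds the same intensities, so its fit could not change a call. The fit of only the groups compared has no difference of responses. Some dim members were absent from the fit of probes well above background on all 12 arrays. The other 43 calls were lost at least once, 40 of them with slide and array position both fitted, where all EAAE E2 arrays share 1 position. That fit gave 9 called members in WT after E2 (7 higher, 2 lower), 4 between genotypes under saline and 13 after E2. It turned Acta1 under saline to 0.089 (adjusted p = 0.905). With the mean of a gene's probes, Myl12b after E2 turned to 0.075 (adjusted p = 0.364), its 2 probes having opposite signs. Leaving out 1 array gave 13 to 19 called members in WT after E2, 0 in EAAE, 8 to 15 for the difference of responses (15 without EAAE E2 3), 14 to 21 between genotypes under saline and 26 to 31 after E2. The replicate number as a block gave, in that order of comparisons, 17, 0, 9, 15 and 29 calls. Whether the numbers pair the mice is not settled by the correlations of same-numbered arrays. In 76 cases an alternative called a member that was not called here. Dim members (Casq1, Myh4, Actn2, Myl7 and Trdn in EAAE) are limited by background.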
